A study of Mus musculus with 10 samples.

Results

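The genes described here are 10 genes of proteins best known from blood plasma, followed by their RNA in the kidney: the alpha-1-antitrypsin genes Serpina1a, Serpina1b, Serpina1c, Serpina1d and Serpina1e, the fibrinogen chain genes Fga, Fgb and Fgg, the transthyretin gene Ttr and the albumin gene Alb. They were taken by name, 10 of the 55952 rows of the deposited expression table. The set was selected on FPKM differences between the study's groups that were already known, so their fold changes are given as a description and without p-values, and no protein was measured.

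The study sequenced kidney RNA of C57BL/6 mice, an inbred strain, kept for 30 days at 400 m (control, 5 libraries) or at 4200 m (hypoxia, 5 libraries). No genetic change or drug is named in the labels for either group, and sex and age are not given there. Each altitude was its own site, so altitude and site cannot be told apart. The labels do not say that each library came from its own mouse, so the spread between libraries may be in part technical. Values are FPKM, fragments scaled to the length of the gene and the size of the library, which allows levels of different genes to be compared.

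Between 16561672 and 17845464 reads per library had been assigned to genes, and 3 reads in a gene of 1 kb amounted to 0.165 to 0.183 FPKM. Although the labelled extraction protocol speaks of retinas, all 8 markers of the proximal tubule were above 1 FPKM, and the retina markers Crx and Rpe65 were at 0 in every library. The sum of the retina markers was 3.91 ± 0.992 FPKM in controls and 2.16 ± 0.811 in hypoxia, against 2025 ± 182 and 1791 ± 437 for the proximal tubule markers (SD, n = 5 and 5). Hypoxia replicates 2, 4 and 5 stood apart in markers of other tissues. Replicate 2 had the highest value of 14 of 15 liver markers. Replicate 4 held 677.2 FPKM of summed adrenal cortex markers and 607.6 of fat markers, where the other libraries held at most 14.0 and 133.6. Replicate 5 held 320.8 FPKM of B cell, 80.9 of neutrophil, 288.0 of macrophage and 6654 of blood cell markers, and 37.5 of pancreatic acinar markers. The B cell sum was also above every control in the other 4 hypoxia libraries, at 1.86 to 2.16 against 0.825 to 1.62 FPKM (exact two-sided permutation p = 0.00794 with all libraries, 0.0317 after adjustment over 12 marker lists). Results are therefore also given without replicates 4 and 5 and, where it matters, without replicate 2.

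Most of these proteins reach the blood from hepatocytes, in which the transcription factors HNF1, HNF4 and C/EBP drive their genes, and fibrinogen and alpha-1-antitrypsin rise in the acute phase response to interleukin-6. The healthy kidney takes up filtered plasma proteins in the proximal tubule through the receptors megalin and cubilin, and several of their genes are also transcribed in tubule cells. Antitrypsin blocks neutrophil elastase, fibrinogen forms the clot, transthyretin carries thyroxine and retinol-binding protein, and albumin holds water and fatty acids in the circulation.

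In the control kidneys the order by mean level was Ttr, Serpina1d, Serpina1a, Fga, Serpina1b, Fgg, Alb, Serpina1c, Fgb and Serpina1e. Neighbours in this order overlapped in their ranges over libraries, except that Serpina1d lay above Serpina1a and Alb above Serpina1c in every pair of libraries. In hypoxia the order became Serpina1d, Serpina1a, Ttr, Alb, Fgg, Fga, Serpina1b, Fgb, Serpina1e and Serpina1c, and there only Serpina1b and Fgb were neighbours without overlap. The fourth place of Alb came from replicate 2, since Alb exceeded Fgg in 1 of the 5 hypoxia libraries. The summed level of the 10 genes was 217.5 ± 18.4 FPKM at 400 m and 213.0 ± 38.8 FPKM at 4200 m (SD, n = 5 and 5), and these totals overlapped between groups.

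The Serpina1 genes are tandem copies on chromosome 12, and the pair with the highest levels is shown by the 250 bases before its RefSeq start (GRCm38.p6), because Serpina1a and Serpina1d differed most in their response while their promoters are closely alike. Serpina1a lies at chr12:103853589-103863562 and Serpina1d at chr12:103763594-103773592, both on the minus strand, and the windows are chr12:103863620-103863869 and chr12:103773634-103773883. Capitals mark GTTAAT, the HNF1 half-site.
Serpina1a: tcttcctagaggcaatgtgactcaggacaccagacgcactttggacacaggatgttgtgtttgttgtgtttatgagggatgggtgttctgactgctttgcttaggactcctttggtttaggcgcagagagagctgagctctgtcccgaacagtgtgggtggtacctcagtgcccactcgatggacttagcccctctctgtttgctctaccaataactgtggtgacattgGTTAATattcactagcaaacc
Serpina1d: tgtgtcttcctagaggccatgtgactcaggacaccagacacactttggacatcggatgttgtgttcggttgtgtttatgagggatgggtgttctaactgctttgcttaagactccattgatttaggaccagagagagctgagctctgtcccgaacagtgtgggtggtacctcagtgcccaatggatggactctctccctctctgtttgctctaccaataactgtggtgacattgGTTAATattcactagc
In an alignment 93.1% of the paired bases were identical between these windows. GTTAAT on either strand was found in 8 of the 9 members with a promoter in the table, all but Fgg, and in 6.43% of 32851 promoter windows of the same length. The core of the hypoxia response element, ACGTG on either strand, was in 16.6% of all windows and in 0 of the 9. Of these 9 members 5 are the Serpina1 copies, whose windows were 92.1 to 98.0% identical in pairs. Neither count is therefore one of independent promoters.

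Serpina1a, one of the major antitrypsin copies, was 5.13-fold higher in hypoxia. Control replicates 1 to 5 had 8.21, 11.7, 14.6, 11.9 and 8.54 FPKM, and hypoxia replicates 1 to 5 had 75.1, 51.8, 63.2, 37.6 and 53.9 FPKM. Every hypoxia library lay above every control, and replicate 4 was the lowest of them. The means were 10.98 ± 2.63 and 56.3 ± 13.9 FPKM (SD, n = 5 and 5), a log2 fold change of 2.30 (SE 0.198) on the scale of log2(FPKM + 0.5). Without hypoxia replicates 4 and 5 it was 2.49, and without replicate 2 it was 2.32.

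Serpina1d, the most abundant copy, differed by less than the spread of its libraries. It stood at 70.3, 81.0, 83.0, 76.1 and 46.6 FPKM in control replicates 1 to 5 and at 87.5, 97.2, 88.6, 61.6 and 70.4 FPKM in hypoxia replicates 1 to 5. The groups overlapped, with control replicate 5 lowest of all and hypoxia replicate 4 below 4 controls. Its log2 fold change was 0.19 (SE 0.177), and 0.38 (SE 0.175) without hypoxia replicates 4 and 5, where the 3 remaining libraries lay above all controls but the gene did not pass the threshold. Without control replicate 5 it was 0.046 (SE 0.140).

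The balance between the copies therefore shifted within each library. Serpina1a amounted to 0.155 ± 0.0263 of Serpina1d in controls, with a range of 0.117 to 0.183, and to 0.696 ± 0.128 in hypoxia, with a range of 0.533 to 0.858. As a share of the summed FPKM of the 5 copies, Serpina1a went from 12.6 ± 1.84% to 38.1 ± 4.34%, while Serpina1d went from 81.1 ± 2.25% to 55.3 ± 4.001% (SD, n = 5 and 5). Neither share overlapped between groups, and the shares did not depend on library size, since both genes of a ratio came from the same library. The sum of the 5 copies was 87.9 ± 18.0 FPKM in controls and 147.3 ± 28.3 in hypoxia, a log2 fold change of 0.75 (SE 0.183), or 0.94 (SE 0.169) without hypoxia replicates 4 and 5.

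**Figure D1:**
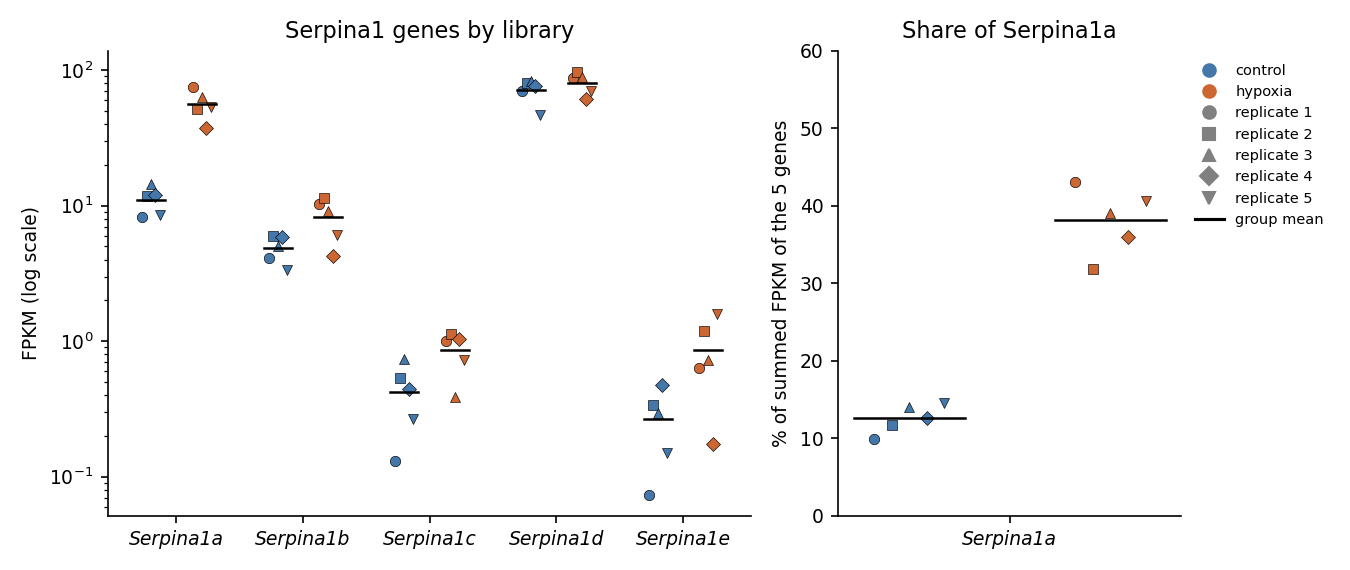
Left, FPKM on a log axis of the 5 Serpina1 genes in each control (blue) and hypoxia (orange) library, with symbols for replicates and bars for group means; right, Serpina1a as a percentage of the summed FPKM of the 5 genes. Serpina1a separates the groups, at 9.92 to 14.5% of the sum in controls and 31.8 to 43.0% in hypoxia, whereas the Serpina1d points overlap.

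Serpina1b was lower than both, at 4.08, 5.95, 5.05, 5.90 and 3.36 FPKM in the controls and 10.2, 11.4, 9.08, 4.27 and 6.11 FPKM in hypoxia replicates 1 to 5. Hypoxia replicates 1, 2, 3 and 5 lay above all controls, replicate 5 by little, and replicate 4 lay among them. The log2 fold change was 0.65 (SE 0.251) and did not pass the threshold. Without replicates 4 and 5 it was 1.02 (SE 0.173) and passed, as it did at 0.85 without replicate 4 alone.

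Serpina1c and Serpina1e were close to the detection limit and passed the filter on low values, a mean of 0.5 FPKM over all libraries, only through the hypoxia group. Serpina1c had 3 to 17 reads in each control and 9 to 28 in each hypoxia library, with means of 0.424 ± 0.238 and 0.857 ± 0.304 FPKM (SD, n = 5 and 5). Serpina1e had 2 to 14 and 5 to 47 reads, with means of 0.267 ± 0.159 and 0.863 ± 0.545 FPKM. In both genes the groups overlapped, and neither passed the threshold with all libraries, although Serpina1e did without hypoxia replicate 4, at a log2 fold change of 0.98 (SE 0.255).

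Reads of these copies are hard to assign. Their coding sequences were 96.3 to 98.5% identical in pairs, and 1200 of 1242 aligned bases (96.6%) were shared by Serpina1a and Serpina1d. Of all 50-base windows in the transcripts of Serpina1a, 57.6% also occurred in another gene, against 29.5% for Serpina1b, 74.2% for Serpina1c, 50.9% for Serpina1d and 34.6% for Serpina1e. The fibrinogen genes, Ttr and Alb had 0 such windows. The deposited gene model of Serpina1b, chr12:103728156-103830373, also spans all of Serpina1d on the same strand. How reads with several matches or in overlapping genes were counted is not given in the sources used here, so the values of single copies are uncertain. The summed FPKM is not free of this either, because the gene lengths differ. They are 1832 bases for Serpina1a, 2415 for Serpina1b and 1394 for Serpina1d, so a read moved between copies changes the sum. Reads dropped or counted more than 1 time would also change it.

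The fibrinogen genes lie together on chromosome 3, with Fgg at chr3:83007724-83015049 and Fga at chr3:83026076-83033627 on the plus strand and Fgb at chr3:83040141-83049863 on the minus strand. The 250 bases before the RefSeq starts of Fgb and Fgg are printed because these are the members whose windows hold CTGGGAA, the interleukin-6 response element. The windows are chr3:83049864-83050113, minus strand, and chr3:83007474-83007723, plus strand (GRCm38.p6). Capitals mark CTGGGAA and, in Fgb, the reverse complement of GTTAAT.
Fgb: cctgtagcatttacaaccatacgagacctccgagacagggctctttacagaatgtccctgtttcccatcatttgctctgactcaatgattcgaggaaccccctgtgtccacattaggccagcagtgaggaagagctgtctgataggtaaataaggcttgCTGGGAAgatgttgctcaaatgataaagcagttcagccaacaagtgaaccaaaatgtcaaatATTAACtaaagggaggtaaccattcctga
Fgg: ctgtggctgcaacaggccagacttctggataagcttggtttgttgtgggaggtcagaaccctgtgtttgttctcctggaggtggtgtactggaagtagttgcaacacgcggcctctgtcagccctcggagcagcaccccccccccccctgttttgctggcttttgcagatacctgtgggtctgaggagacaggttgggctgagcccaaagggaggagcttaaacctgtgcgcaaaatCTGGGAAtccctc
CTGGGAA on either strand was in 9.10% of all promoter windows. TTCNNNGAA, the STAT motif, was in the windows of Fga and Fgb and in 7.02% of all. TTGCNNAA, a C/EBP motif, was in 6 of the 9 members and in 9.56% of all. Those members include the closely alike copies Serpina1b, Serpina1d and Serpina1e. These are matches of letters in a window, not measured binding, and their part in the changes was not tested.

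Fgg, the gamma chain, was 3.85-fold higher in hypoxia. Control replicates 1 to 5 had 1.94, 4.54, 2.79, 2.68 and 3.94 FPKM, and hypoxia replicates 1 to 5 had 8.86, 6.39, 8.92, 18.8 and 18.2 FPKM. The groups did not overlap, and replicates 4 and 5, the libraries with adrenal, fat and leukocyte markers, were the highest; the part of those markers in the result was not tested. The means were 3.18 ± 1.04 and 12.2 ± 5.82 FPKM (SD, n = 5 and 5) and the log2 fold change was 1.72 (SE 0.308). Without replicates 4 and 5 the fold was 2.54 and the log2 fold change 1.25 (SE 0.228).

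Fga, the alpha chain, overlapped between groups. Its controls stood at 3.97, 7.97, 9.31, 9.10 and 7.94 FPKM and its hypoxia libraries at 6.99, 8.12, 11.6, 16.5 and 16.6 FPKM. Only replicates 3, 4 and 5 of hypoxia lay above all controls. The log2 fold change of 0.58 (SE 0.283) did not pass the threshold and was 0.23 (SE 0.266) without replicates 4 and 5. Without control replicate 1, the lowest library, it was 0.38 (SE 0.247).

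Fgb, the beta chain, was far below the other chains, with 15 to 36 reads in control and 50 to 95 in hypoxia libraries. Its levels were 0.235, 0.352, 0.344, 0.332 and 0.569 FPKM in controls and 0.749, 1.37, 0.980, 1.17 and 0.936 FPKM in hypoxia. All hypoxia libraries were above all controls, 2.84-fold in the mean, but like Serpina1c and Serpina1e the gene passed the filter only through the hypoxia group. The log2 fold change was 0.83 (SE 0.166), a value held down by the added 0.5, and 1.5 (SE 0.261) with limma voom on the recovered reads. Without replicates 4 and 5 it was 0.81 (SE 0.186), and without replicates 2, 4 and 5 it was 0.66 (SE 0.201).

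A fibrinogen molecule holds equal numbers of each chain, but only RNA was measured here. Of the 3 ratios between the chain genes 1 separated the groups. Among single genes tested, 14.2% had groups that did not overlap, and no such share was computed for ratios. Fgg amounted to 0.430 ± 0.125 of Fga in controls and 1.01 ± 0.222 in hypoxia (SD, n = 5 and 5), and the ranges, 0.295 to 0.569 and 0.771 to 1.27, did not overlap. The hypoxia replicates 4 and 5, the highest in both chains, had ratios of 1.14 and 1.09, within the range of the other 3. Fga exceeded Fgb 21.6 ± 6.04-fold in controls and 11.8 ± 4.51-fold in hypoxia, and Fgg exceeded Fgb 8.85 ± 2.33-fold and 12.2 ± 5.79-fold, with overlapping ranges in both cases.

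**Figure D2:**
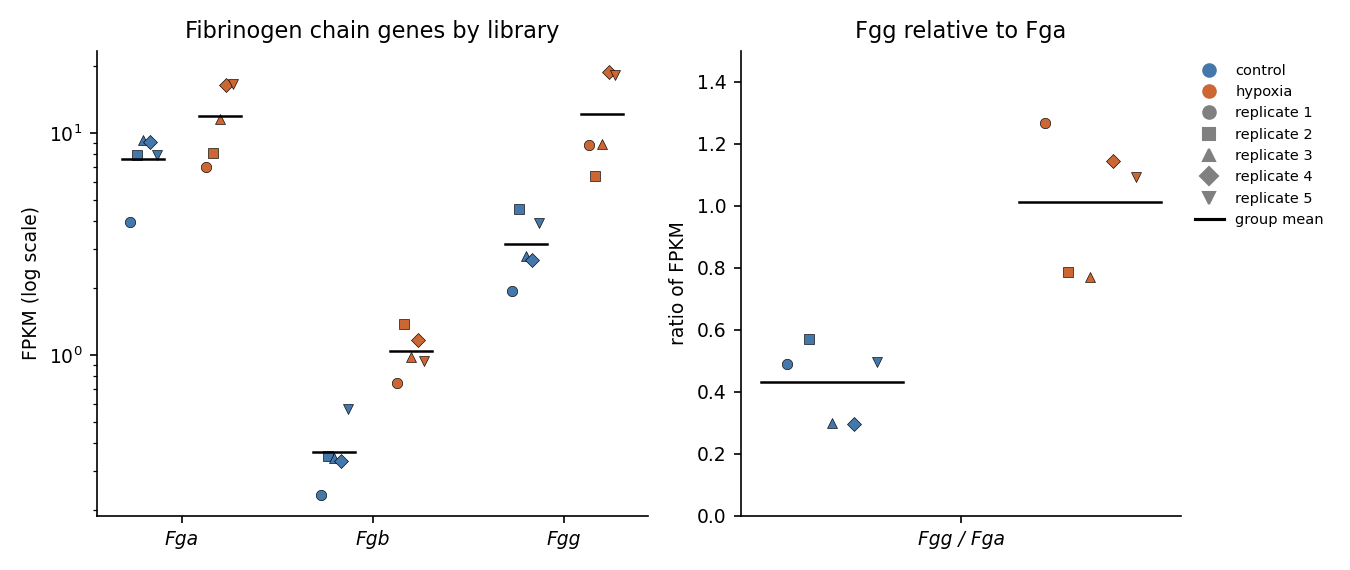
Left, FPKM on a log axis of Fga, Fgb and Fgg in each library; right, the ratio of Fgg to Fga in the same libraries, with bars for group means. Fgg and Fgb separate the groups and Fga does not, and the ratio lies between 0.295 and 0.569 in controls and between 0.771 and 1.27 in hypoxia.

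Ttr, on chromosome 18, was the most abundant of the set in every control and the member that was lower in hypoxia. Control replicates 1 to 5 had 126.2, 125.5, 110.0, 82.9 and 138.2 FPKM, and hypoxia replicates 1 to 5 had 33.6, 42.7, 29.3, 22.4 and 12.4 FPKM. No hypoxia library came near a control, and replicates 5 and 4 were the lowest. The means were 116.6 ± 21.3 and 28.1 ± 11.4 FPKM (SD, n = 5 and 5), 4.15-fold lower in hypoxia, with a log2 fold change of -2.12 (SE 0.287), or -1.71 (SE 0.175) without replicates 4 and 5. Ttr was 11.4 ± 4.28 times Serpina1a in controls and 0.512 ± 0.218 times in hypoxia.

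The late proximal tubule list was lower in sum, and 3 of its 6 genes fell by the gene test: Acy3, Atp11a and Slc5a10. Of all tested genes 7.79% were called lower. The summed level fell from 2032 ± 191 to 1023 ± 294 FPKM (SD, n = 5 and 5, exact two-sided permutation p = 0.00794, 0.0317 after adjustment over 12 marker lists), all 6 markers being above 1 FPKM in controls. Acy3, an aminoacylase, made up most of the difference, with 1052 ± 139 FPKM in controls and 323.9 ± 102.5 in hypoxia, whereas Slc7a13, an amino acid transporter, was at 459.3 ± 87.0 and 406.6 ± 124.2 FPKM (limma adjusted p = 0.537). In hypoxia replicates 1 to 5 the sum was 1328, 1359, 857.9, 778.7 and 791.4 FPKM, so every library lay below the lowest control at 1819. The part of these cells in the result for Ttr was not tested, and in bulk tissue fewer cells of a type and less RNA per cell cannot be told apart. The broader proximal tubule list gave 2025 ± 182 and 1791 ± 437 FPKM (exact two-sided permutation p = 0.333), with replicate 5 of hypoxia at 1066.5.

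Of 6 genes that carry or take up retinol and thyroid hormone, 5 were tested, 1 rose and none fell (3.66% and 7.79% of all tested genes), with a median log2 fold change of 0.07, or -0.15 without hypoxia replicates 4 and 5, against 0.01 over all tested genes. Stra6, the membrane receptor for retinol-binding protein, rose from 0.551 ± 0.150 to 2.16 ± 0.578 FPKM (SD, n = 5 and 5), a log2 fold change of 1.32 and a limma adjusted p of 0.00223. It was also past the threshold without hypoxia replicates 4 and 5 (1.43, adjusted p = 0.00139).

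Alb, at chr5:90460897-90476602, was low in the kidney. Controls had 2.81, 1.66, 1.88, 1.03 and 1.44 FPKM, and hypoxia replicates 1 to 5 had 5.48, 45.1, 4.18, 4.74 and 2.48 FPKM. Replicate 2 was far above the others, replicate 5 lay within the range of controls, and the remaining 3 lay above it. The hypoxia mean of 12.4 ± 18.3 FPKM against 1.76 ± 0.661 in controls (SD, n = 5 and 5) therefore rested on 1 library. The log2 fold change was 1.72 (SE 0.618) and did not pass the threshold.

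Replicate 2 of hypoxia also carried liver RNA. It had none of the 15 liver markers at 0, whereas the other libraries had 3 to 8 of them at 0. It held Mup3, a major urinary protein, at 4.38 FPKM, Ahsg, fetuin-A, at 4.11, Hpx, hemopexin, at 2.68 and Cyp3a11, a hepatic cytochrome P450, at 1.26. Each of these was at most at 0.308 FPKM in every other library. Apoa2, Apoc3 and Itih1 were above 1 FPKM in control kidneys, and without Apoa2 and Apoc3 the other 13 markers summed to 17.7 FPKM in replicate 2 and to 2.09 to 2.73 in the other 9 libraries. The whole list gave sums of 23.5 ± 5.35 and 22.3 ± 14.4 FPKM in the control and hypoxia groups (SD, n = 5 and 5, exact two-sided permutation p = 0.889).

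Alb was still higher in hypoxia without replicate 2, at 4.22 ± 1.28 FPKM (SD, n = 4), where the 13 markers had sums of 2.09 to 2.50 FPKM against 2.17 to 2.73 in controls. In controls these sums were mostly Itih1, at a mean of 1.35 FPKM, and Fetub, at 0.498. Traces of liver RNA could therefore go unseen in them, and the part of such traces in Alb was not tested. The log2 fold change of Alb without replicate 2 was 1.06 (SE 0.251), past the threshold, with replicate 5 the 1 library within the range of controls. Leaving out replicate 5 alone gave 2.04 (SE 0.613), also past it. Without replicates 4 and 5 it was 2.31 (SE 0.665), which did not pass, and without replicates 2, 4 and 5 it was 1.27 (SE 0.266), which did.

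The other members were mixed in replicate 2. Among the hypoxia libraries Fgg was lowest there and Serpina1a and Fga were second lowest. Serpina1b, Serpina1c, Serpina1d, Fgb and Ttr were highest there, the last 3 at 97.2, 1.37 and 42.7 FPKM, and the part of the liver RNA in these values was not tested. Serpina1a exceeded Alb 7.03 ± 3.10-fold in controls, 1.15-fold in replicate 2 and 7.94 to 21.7-fold in the other hypoxia libraries.

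**Figure D3:**
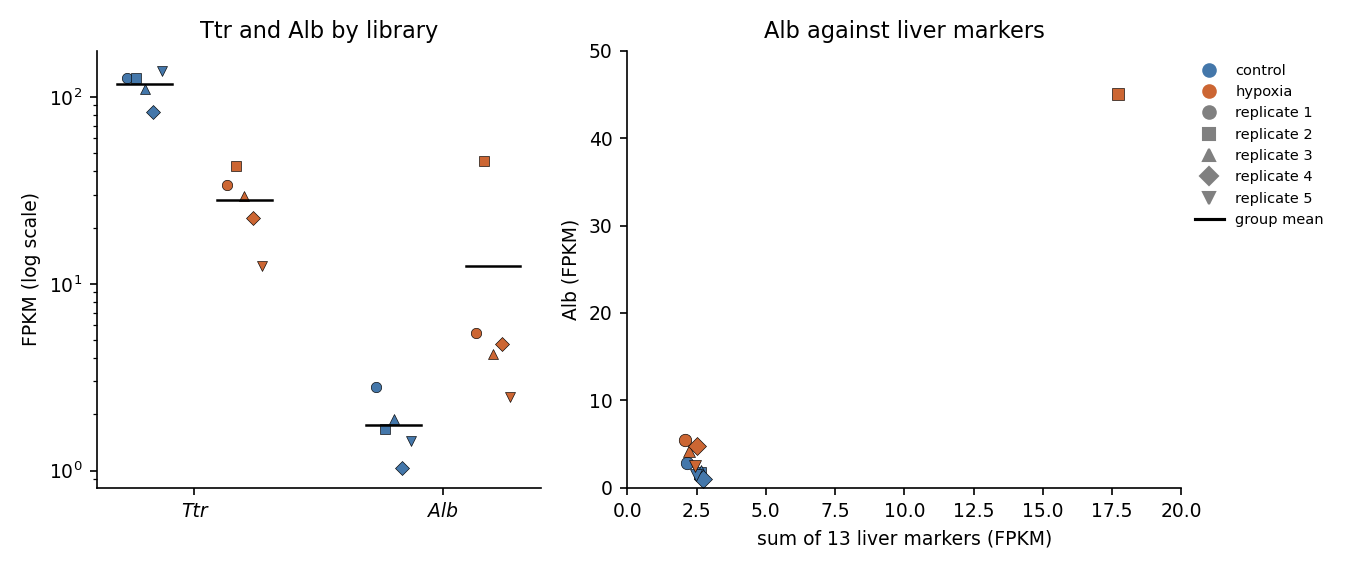
Left, FPKM on a log axis of Ttr and Alb in each library, with bars for group means; right, Alb against the summed FPKM of 13 liver markers (the liver list without Apoa2 and Apoc3) on linear axes. Hypoxia replicate 2 stands alone at 45.1 FPKM of Alb and 17.7 FPKM of liver markers, and the other 9 libraries lie at 2.09 to 2.73 FPKM of liver markers.

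By the rule of a limma adjusted p under 0.05, 4 of the 10 genes were past the threshold with all libraries: Serpina1a, Fgb and Fgg were higher and Ttr was lower, Fgb having been tested only through its hypoxia values. Among all 15264 genes tested, 3.66% were called higher and 7.79% lower, and 14.2% had groups that did not overlap, as these 4 genes did. Without hypoxia replicates 4 and 5, 9 of the 10 genes passed the filter on low values, and Serpina1a, Serpina1b, Fgb and Fgg were higher and Ttr lower, beside 4.53% higher and 7.75% lower of the 14724 genes tested there. As the contrast was known when the genes were chosen, nothing is read from these shares.

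**Figure D4:**
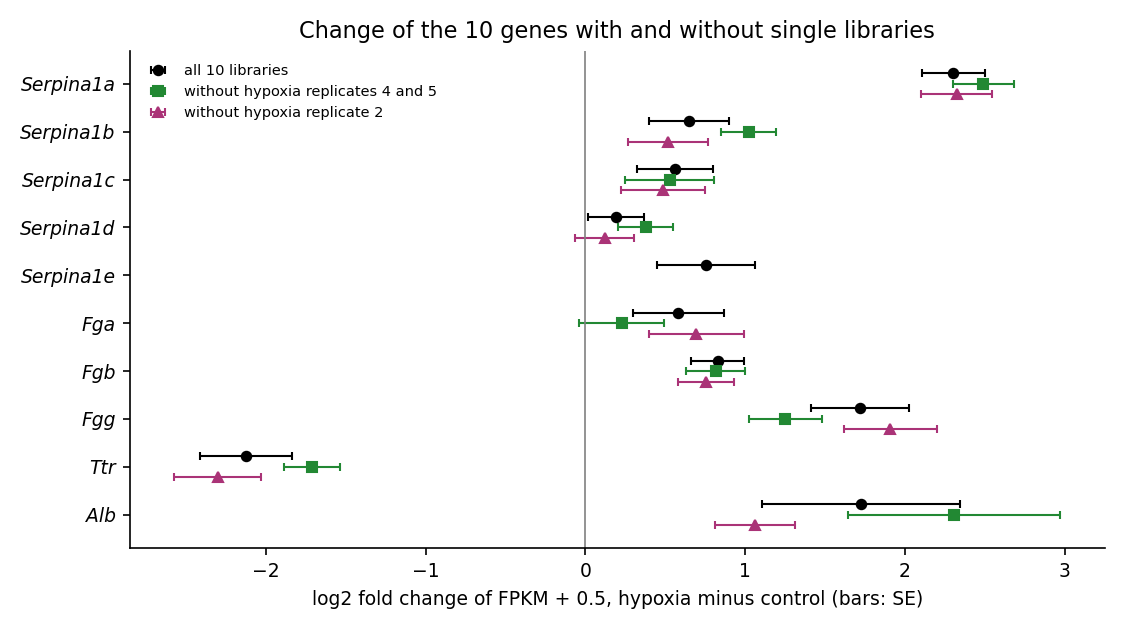
Log2 fold change of FPKM + 0.5, hypoxia minus control, of the 10 genes with all libraries (circles), without hypoxia replicates 4 and 5 (squares) and without hypoxia replicate 2 (triangles); bars are standard errors, and no marker is drawn where a gene was below the filter. Serpina1a lies between 2.30 and 2.49 and Ttr between -2.30 and -1.71 in all 3 fits, and Alb moves from 1.72 to 1.06 without replicate 2.

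Relatives of the members by gene family were taken next, with errors given as SD over 5 libraries in each group. In the albumin family Gc, the vitamin D binding protein, rose from 18.5 ± 3.15 to 69.4 ± 18.5 FPKM (SD, n = 5 and 5), by 1.86 on the log2 scale with an SE of 0.176 (limma adjusted p = 0.000348), and by 1.99 without hypoxia replicates 4 and 5. Afm, afamin, a vitamin E carrier, stood at 14.5 ± 0.934 and 15.4 ± 3.37 FPKM (adjusted p = 0.813). Its gene lies near Alb, with Afp of the same family between them. Of the 3 genes of this list 2 were tested, 1 rose and none fell, beside 3.66% and 7.79% of all tested genes.

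Among 20 other clade A serpins only 4 were abundant enough to be tested, and none passed, with 1 at an unadjusted p under 0.05 and none by limma voom on the recovered reads. Of the 4, Serpina3g and Serpina3c, at 0.403 and 0.327 FPKM in controls, reached the filter of 0.5 FPKM only through the hypoxia group. The median log2 fold change of the list was 0.91. Without hypoxia replicates 4 and 5 only 2 genes were tested, with a median of 0.28. Of all tested genes 3.66% were called higher and 7.79% lower. Serpina1f, which sits beside the antitrypsin copies, stood at 46.1 ± 11.2 and 47.0 ± 10.97 FPKM (log2 fold change 0.03, adjusted p = 0.930). Serpina3n, a relative of antichymotrypsin, was at 0.763 ± 0.166 and 2.65 ± 2.44 FPKM (adjusted p = 0.272), and passed without hypoxia replicate 2.

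Of 19 acute phase genes 11 were tested, 3 rose and none fell (3.66% and 7.79% of all tested genes), although with TMM scaling and with limma voom 1 of them, the complement factor gene Cfb, also fell. The median log2 fold change of the list was 0.51. Mt1, a metal-binding metallothionein, was at 66.7 ± 11.6 FPKM in controls and rose by 0.75 on the log2 scale to 112.4 ± 21.1 (adjusted p = 0.0149). Cp, the copper carrier ceruloplasmin, rose from 6.01 ± 1.203 to 9.78 ± 2.05 FPKM (0.65, adjusted p = 0.0284), a call lost in 6 of 10 fits that left out 1 library (control replicates 1, 2, 3 and 5 and hypoxia replicates 3 and 4; adjusted p up to 0.0743). Itih4, an inter-alpha-trypsin inhibitor chain, rose from 0.132 ± 0.0846 to 1.58 ± 1.18 FPKM (1.58, adjusted p = 0.00994), but its control mean lay under the filter of 0.5 FPKM, so that it was tested only through the hypoxia group, and it was under the filter without replicates 4 and 5. C3, the central complement protein, was at 9.03 ± 1.37 and 36.9 ± 31.6 FPKM and did not pass (adjusted p = 0.0755). Without hypoxia replicates 4 and 5 the list held 1 call of 10 tested, that of Mt1, and a median of 0.09, beside 4.53% higher and 7.75% lower of all genes tested there. Without replicate 2 the list held 5 calls, with C3 (adjusted p = 0.0312) and Cfb added, beside 1917 calls among all 15286 genes tested there. The serum amyloid genes Saa1 and Saa2 and Crp had group means below 0.05 FPKM. Saa3, of the same family, was below the filter and not tested, at 0.0130 ± 0.0191 FPKM in controls and 0.323 ± 0.464 in hypoxia. Its highest value was 1.10 FPKM in hypoxia replicate 3.

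Of 18 genes of interleukin-6 family signalling 14 were tested and 1 rose, beside 3.66% of all tested genes. This was Cebpd, the acute phase factor C/EBP delta, at 2.32 ± 0.742 FPKM in controls and 4.03 ± 0.769 in hypoxia (log2 fold change 0.71, adjusted p = 0.0405), a call lost in 8 of 10 fits that left out 1 library, all but those without control or hypoxia replicate 4 (adjusted p up to 0.0985). Il6st, the shared receptor chain gp130, was at 23.5 ± 0.652 and 20.7 ± 1.25 FPKM (adjusted p = 0.0780) and lower past the threshold without hypoxia replicates 4 and 5 (adjusted p = 0.0411). Jak1, the kinase bound to it, was at 24.3 ± 1.34 and 28.1 ± 9.93 FPKM (adjusted p = 0.583).

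Of 13 liver-enriched transcription factors 7 were tested and none passed, with 2 at an unadjusted p under 0.05 and none by limma voom. The shares over all tested genes were 3.66% higher and 7.79% lower. The most abundant were Hnf4a, at 176.3 ± 7.15 and 153.4 ± 38.7 FPKM (adjusted p = 0.377), and Nr1h4, the bile acid receptor, at 53.1 ± 17.5 and 61.6 ± 13.5 FPKM (adjusted p = 0.478).

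Of 30 coagulation and fibrinolysis genes besides fibrinogen 23 were tested, 2 rose and 2 fell, beside 3.66% and 7.79% of all tested genes, so the share that fell was near that of all genes. Serpinf2, alpha-2-antiplasmin, the main inhibitor of plasmin, fell from 164.6 ± 19.9 to 77.2 ± 21.3 FPKM (-1.12 on the log2 scale, SE 0.187, adjusted p = 0.00619). Proc, the anticoagulant protein C, fell from 57.9 ± 5.65 to 30.2 ± 7.04 FPKM (-0.95, SE 0.151, adjusted p = 0.00518). Pros1, protein S, the cofactor of protein C, rose from 7.81 ± 0.640 to 11.7 ± 2.07 FPKM (0.55, adjusted p = 0.0151), and Cpb2, a carboxypeptidase that slows fibrinolysis, from 0.574 ± 0.164 to 1.78 ± 0.825 FPKM (1.02, adjusted p = 0.0234). The call of Cpb2 was lost in 3 of 10 fits that left out 1 library (control replicates 1, 2 and 5; adjusted p up to 0.0590). Without hypoxia replicate 5 the list held 8 calls, with Kng2, F5, F8 and Klkb1 added, which were named after their values were seen. Calls rose over all genes too in that fit, to 2724 of 14804 tested, from 1748 of 15264 with all libraries. Plau, urokinase, the most abundant of the list, was at 254.4 ± 83.9 and 189.8 ± 46.2 FPKM (adjusted p = 0.320).

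**Figure D5:**
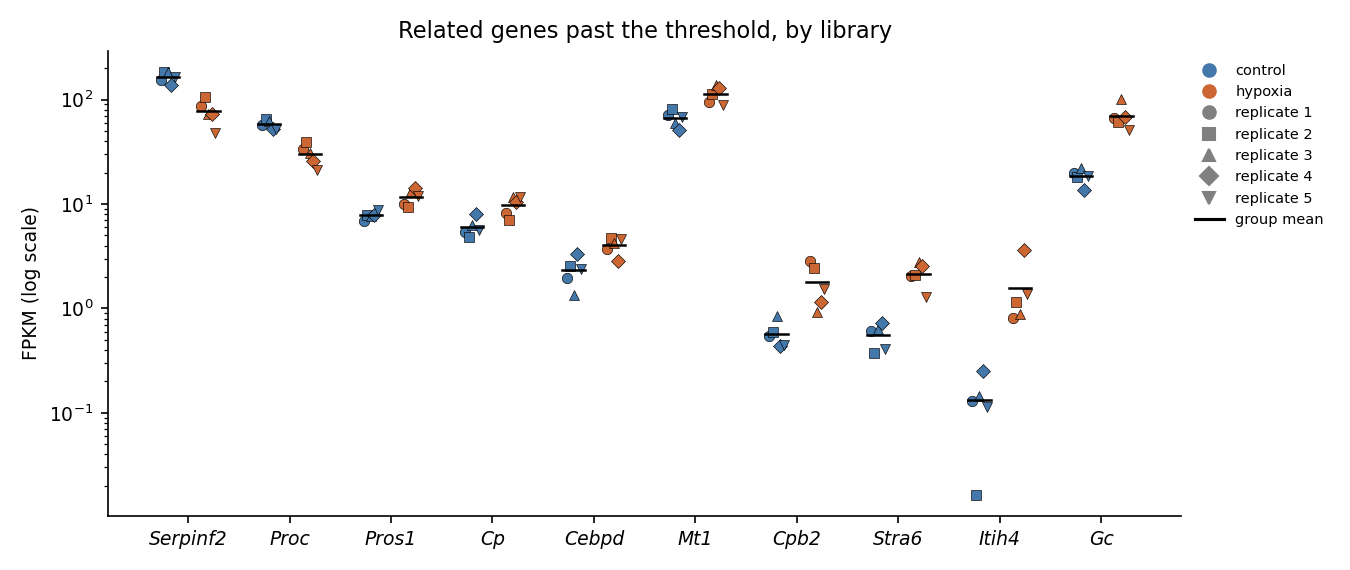
FPKM on a log axis, by library, of the 10 genes from the related lists that passed the threshold, with bars for group means, ordered by log2 fold change. Serpinf2 and Proc are lower in every hypoxia library than in any control, Gc is higher in every one, and Cp and Cebpd overlap between groups.

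Receptors for fibrinogen and for filtered proteins gave no calls, beside 3.66% called higher and 7.79% lower of all tested genes. None of the 8 tested fibrinogen receptor genes of 9 passed, none was at an unadjusted p under 0.05, and none passed by limma voom. The most abundant of them, the integrin subunits Itgb1 and Itgav, were at 95.2 ± 4.02 and 89.3 ± 3.19 FPKM (adjusted p = 0.381) and at 18.9 ± 1.55 and 19.5 ± 2.58 FPKM (adjusted p = 0.804). None of the 6 genes of tubular protein uptake passed with limma or limma voom, with 2 at an unadjusted p under 0.05. Lrp2, megalin, was at 143.8 ± 11.98 and 138.4 ± 40.1 FPKM (adjusted p = 0.745), and Fcgrt, the receptor that recycles albumin, at 102.4 ± 11.04 and 85.7 ± 15.4 FPKM (adjusted p = 0.207).

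Of the genes within 200 kb of the members many were below the filter and not tested. Among those tested only Ppp4r4 was called, beside 3.66% called higher and 7.79% lower of all tested genes, and nothing is read from this. Ppp4r4, a phosphatase subunit gene, rose from 1.37 ± 0.257 to 2.43 ± 0.402 FPKM (0.65 on the log2 scale, limma adjusted p = 0.0144). Other serpin genes lie between it and the Serpina1 copies. At the fibrinogen genes Plrg1, a splicing factor, was at 9.44 ± 0.633 and 9.68 ± 1.21 FPKM (adjusted p = 0.847) and Lrat, which esterifies retinol, at 0.925 ± 0.394 and 1.33 ± 0.408 FPKM (adjusted p = 0.266). Beside Ttr the desmosomal gene Dsg2 was at 1.41 ± 0.280 and 1.92 ± 0.329 FPKM (adjusted p = 0.117).

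Genes with the most similar pattern over the 10 libraries were ranked by Pearson's r of log2(FPKM + 0.5), a description in which the difference between groups is shared by all points. For Serpina1a they were Gm6614 (r = 0.976), Akr1c13 (0.970), Nampt (0.970), Slc7a12 (0.970) and Prlr (0.965), the last being the prolactin receptor, at group means of 1.38 and 8.28 FPKM. None of these stayed among the 5 highest once group means had been subtracted, where Smim15 led (r = 0.915). Gm6614, at 0.322 FPKM in controls and 5.14 in hypoxia, passed the filter on low values only through the hypoxia group. For Ttr they were Mlec (0.998), Espn (0.992), Chd3 (0.992), Dnajc22 (0.991) and Akap1 (0.990), and Mlec, an endoplasmic reticulum lectin at 205.7 and 113.0 FPKM, also ranked first once group means had been subtracted (r = 0.986). For Fgg they were Btg3 (0.981), Lgals3bp (0.970), C4b (0.962), Sspn (0.959) and Plp2 (0.956), of which Btg3 stayed among the 5 highest after subtraction (r = 0.960). Alb had lower values, Rgn at 0.898 and Tusc1 at 0.895 leading, and its pattern rested largely on hypoxia replicate 2.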

How the data were processed

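Kidney RNA of 10 libraries was grouped by the treatment label, with replicate numbers from the titles. The authors deposited FPKM values for 55952 genes together with coordinates and, as an other unit, gene lengths in bases. Per the submitters' processing notes the aligner was HISAT2 2.0.5 and the build the human hg38, whereas the identifiers are those of the mouse. Of 55141 identifiers found in a GRCm38 annotation, 99.4% had identical coordinates, those of all 10 members included. For the counting tool, its treatment of strand and the annotation used the entry is "not given in the sources used here".

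FPKM times length fell on whole multiples of 1 step for 100% of values (tolerance 0.05), which gave whole reads, and precision is limited by their number. Tests covered genes whose mean reached 0.5 FPKM and used log2(FPKM + 0.5) in limma 3.58.1 under R 4.3.3 (trend and robust options, group as the only term, two-sided, Benjamini-Hochberg over all tested genes, threshold 0.05), and the steps were tested on simulated data. The added 0.5 understates changes of low genes. Marker sums were compared by exact permutation over 252 regroupings. Sequences came from RefSeq (GRCm38.p6) for 9 of the 10 members, transcript windows from GENCODE. Plots came from matplotlib 3.10.9 (Python 3.11.15).

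Members, gene lists and the rule for named genes were chosen with earlier results of these data known. The rule takes, of each list, up to 4 called genes with the smallest p and the 2 most abundant, the protein-coding genes within 200 kb of members, and the 5 genes most correlated with Serpina1a, Fgg, Ttr and Alb. Some genes it would name are not reported here. Alternatives covered scaling, pseudocount, filters, a replicate block, rank sums and the omission of libraries; limma voom on recovered reads and the fit that left out hypoxia replicates 2, 4 and 5 were chosen after seeing the data. Same-numbered libraries of the groups are not stated to share a mouse, litter or day.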

Additional observations from a re-analysis of the deposited data

Results flagged for a closer look

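Of 44 groups of 5 libraries examined, for the members and for the marker sums, 11 had a highest or lowest library set apart from the rest by more than Dixon's 95% limit, and chance alone sets apart about 1 in 20 groups. Among the members these were Fga in control replicate 1, low at 3.97 FPKM, and Alb in hypoxia replicate 2, high at 45.1 FPKM.

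The others were marker sums. Hypoxia replicate 5 was high in blood cell markers (6654 FPKM), neutrophil markers (80.9 FPKM), macrophage markers (288.0 FPKM), B cell markers (320.8 FPKM) and pancreatic acinar markers (37.5 FPKM). Hypoxia replicate 4 was high in adrenal cortex markers (677.2 FPKM), fat markers (607.6 FPKM) and pancreatic islet markers (44.5 FPKM). The islet sum was almost wholly Chga, at 43.5 FPKM, with Pcsk1 at 0.995; the 5 genes Ins1, Ins2, Gcg, Iapp and Sst of that list of 8 were at 0 in every library, and control replicate 2 was set apart at 0.188 FPKM.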

How the results depend on the processing

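Over 193 alternative values for the members, 185 kept their direction and side of the threshold, 0 reversed, 7 gained the call (3 for Serpina1b, 3 for Alb, 1 for Serpina1e) and 1 lost it (Fgb without hypoxia replicates 2, 4 and 5). The number of members past the threshold ran from 4 to 6 over the fits that left out 1 library. Genes called in all numbered 1748, against 966 with no filter on low values and 824 to 2724 when 1 library was left out. The 559 higher and 1189 lower calls became 750 and 834 with upper quartile scaling. The difference of the liver marker sum, -1.24 FPKM, was 4.96 without hypoxia replicates 4 and 5, 2.38 without the most abundant marker and -7.39 to 1.76 when 1 library was left out; the cause was not tested. With the replicate number as a block 999 genes were called, the 4 member calls did not change, and Mt1, Cebpd and Cpb2 lost theirs. Same-numbered libraries correlated at -0.08 to 0.09 once group means had been subtracted, and only replicate 2 matched its own number best. Such weak correlations cannot tell whether the samples were paired. The planned count-model tests on recovered reads were not run, since the deposited unit is FPKM. Serpina1c, Serpina1e and Fgb rest on few reads, and their log2 fold changes of 0.56, 0.75 and 0.83 became 1.07, 1.53 and 1.5 with limma voom.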
